A study of Mus musculus with 10 samples.

Results

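The genes described here encode the vacuolar proton pump (V-ATPase) and the membrane of the lysosome, measured in mouse spinal cord during experimental autoimmune encephalomyelitis (EAE), which serves as a model of multiple sclerosis. The rule for members uses gene names and no measured value: every gene whose symbol begins with Atp6v0, Atp6v1 or Atp6ap, which gave 26 genes, and 16 listed genes for lysosomal membrane proteins and for the MiT transcription factors. That made 42 of the 21936 genes in the deposited table. One of the 26, Atp6v1fnb, is a neighbour of Atp6v1f that only shares its name, and the a3 subunit, Tcirg1, does not match the name rule and is given as a non-member. Poly(A) RNA from spinal cord was sequenced in 5 samples titled Nar and 5 titled EAE, all wild type and all taken at day 14. The series describes mice with EAE treated with naringenin, a citrus flavonoid, and the groups were taken from the sample titles, because the treatment field says naringenin for all 10 samples, EAE samples included. The labels used here give no strain, age, sex, route or dose, and no healthy group. Whether each sample is a separate animal is not stated, so p-values measure only the spread among these samples and that spread may be technical.

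The V-ATPase pumps protons into lysosomes, endosomes and synaptic vesicles. Its V1 sector hydrolyses ATP in the cytosol and its V0 sector carries protons through the membrane, and several subunits exist as paralogs that differ between cell types. LAMP proteins line the lysosomal membrane, and the MiT factors TFEB, TFE3 and MITF switch on lysosomal genes by binding E-boxes. Among the paralogs, d1 (Atp6v0d1) is found in most tissues, d2 (Atp6v0d2) in osteoclasts, macrophages and a few epithelia, and a1, e2 and g2 are abundant in neurons, while CD68, LAPTM5 and a3 are abundant in macrophages.

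Promoter windows from RefSeq (build GRCm38.p6, 250 bases before to 50 after the start, the first listed window per gene) were found for 34 of the 42 members. The unmatched members were Atp6v0d2, Atp6v0a2, Atp6v1b2, Atp6v1c1, Atp6v1g1, Atp6v1h, Atp6ap1l and Laptm4b. Read on both strands, the E-box CACGTG occurred in 7 of the 34 windows (20.6%) and in 7.24% of the 27025 windows of the same length for all genes. The 7 were Atp6v0b, Atp6v0d1, Atp6v0e, Atp6v1a, Clcn7, Lamp1 and Mcoln1. The longer form TCACGTGA, which contains the E-box, was in 5 of 34 (14.7%) against 1.01% of all windows. The AP-1-type motif TGANTCA was in Atp6v0a1, Cd68 and Laptm4a, which is 8.82% of the members' windows against 7.93% of all, and the PU.1-type GAGGAAGT was in 0 of 34 against 3.28% of all. A match is a run of letters and not a shown binding site. The 250 bases before the start are printed for 3 members with E-boxes in that stretch, to set beside their measured levels, and for Cd68, the lysosomal membrane gene that differed most. Capitals mark CACGTG in the first 3 and TGANTCA in Cd68, and each sequence runs 5′ to 3′ on the gene's strand.
Atp6v0b, chr4:117887330-117887579, minus strand: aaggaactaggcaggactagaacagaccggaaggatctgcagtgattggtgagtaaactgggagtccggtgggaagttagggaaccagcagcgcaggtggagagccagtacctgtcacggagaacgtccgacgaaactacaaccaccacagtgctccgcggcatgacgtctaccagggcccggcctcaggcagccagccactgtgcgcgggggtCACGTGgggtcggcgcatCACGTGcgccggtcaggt
Lamp1, chr8:13158911-13159160, plus strand: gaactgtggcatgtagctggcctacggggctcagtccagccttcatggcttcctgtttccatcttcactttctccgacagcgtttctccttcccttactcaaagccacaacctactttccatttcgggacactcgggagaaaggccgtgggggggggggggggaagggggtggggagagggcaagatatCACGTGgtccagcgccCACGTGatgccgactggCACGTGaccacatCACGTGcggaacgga
Clcn7, chr17:25133141-25133390, plus strand: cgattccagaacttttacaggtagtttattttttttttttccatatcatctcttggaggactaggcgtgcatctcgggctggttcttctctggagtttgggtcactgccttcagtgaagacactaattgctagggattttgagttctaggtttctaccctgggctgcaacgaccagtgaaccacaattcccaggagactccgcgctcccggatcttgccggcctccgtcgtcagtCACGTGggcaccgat
Cd68, chr11:69666171-69666420, minus strand: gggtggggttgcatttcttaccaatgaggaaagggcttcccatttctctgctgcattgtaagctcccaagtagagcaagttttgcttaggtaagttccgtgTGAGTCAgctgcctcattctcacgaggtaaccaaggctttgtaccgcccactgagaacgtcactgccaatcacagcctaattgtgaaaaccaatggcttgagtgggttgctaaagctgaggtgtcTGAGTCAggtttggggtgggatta
Lamp1 had 4 E-boxes, beginning 61, 45, 28 and 15 bases before the start. Atp6v0b had 2, at 36 and 18 bases, and Clcn7 had 1 in this stretch, at 15 bases. Cd68 had no E-box and held TGAGTCA at 149 and 24 bases before the start.

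The Nar libraries held 14504726 to 15139706 reads in genes and the EAE libraries 16658798 to 18961501. Mitochondrial protein-coding genes took 6.69 to 7.51% of reads in Nar and 4.62 to 7.01% in EAE, and EAE 4 had the lowest share. EAE 3 was the only EAE sample within the Nar range. Fits with that share as a covariate can therefore hardly separate it from group. One library stood apart: in Nar 4 the mean log2 CPM of the 10 microglia and macrophage markers tested was 6.18, against 4.28 to 4.61 across the remaining Nar libraries and 5.80 to 6.21 across EAE. CPM is a count relative to library size, scaled to a fixed total and for library composition. The neuron markers averaged 9.16 to 9.34 on that scale in Nar, Nar 4 included, and 9.09 to 9.30 in EAE, so neuronal transcripts were present in every library. Results that rest on Nar 4 are given with and without it, and values without it only describe the remaining samples, not an independent test. These are bulk libraries, so fewer cells of a type and less RNA per cell cannot be told apart.

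Of the 42 members, 36 had enough reads to be tested: 20 pump or accessory genes and all 16 membrane and MiT genes. With edgeR's quasi-likelihood test and an adjusted p under 0.05, 1 member was higher in Nar (Atp6v1g2) and 2 were lower (Atp6v0d2 and Cd68). Over all 14595 genes tested, 1.58% were called higher and 2.36% lower, 3.93% in either direction. Before adjustment, 11 of the 36 members and 22.5% of all genes had p under 0.05. Among members 17 fold changes were positive and 19 negative, with a median log2 fold change of -0.06 against 0.02 over all genes. All Nar samples lay above all EAE samples for Atp6v1g2 and below them for Atp6v0d2, Cd68, Tfe3 and Scarb2, whereas 2.67% of all genes were separated upward and 3.12% downward, 5.79% in either direction. Without Nar 4, edgeR called 1 member higher and 6 lower (Atp6v0d2, Cd68, Laptm5, Cd63, Lamp2 and Scarb2), beside 2.61% and 7.49% of the genes tested in that fit. With all samples DESeq2 called Atp6v1g2 higher and Atp6v0d2, Cd68, Cd63 and Scarb2 lower, and limma-voom called the same genes and Laptm5. Both tools called more genes than edgeR: DESeq2 513 higher and 793 lower of 18382, and limma-voom 300 and 581 of 14595. The plot of fold changes by role shows the pump subunits close to 0 apart from Atp6v0d2.

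**Figure D1:**
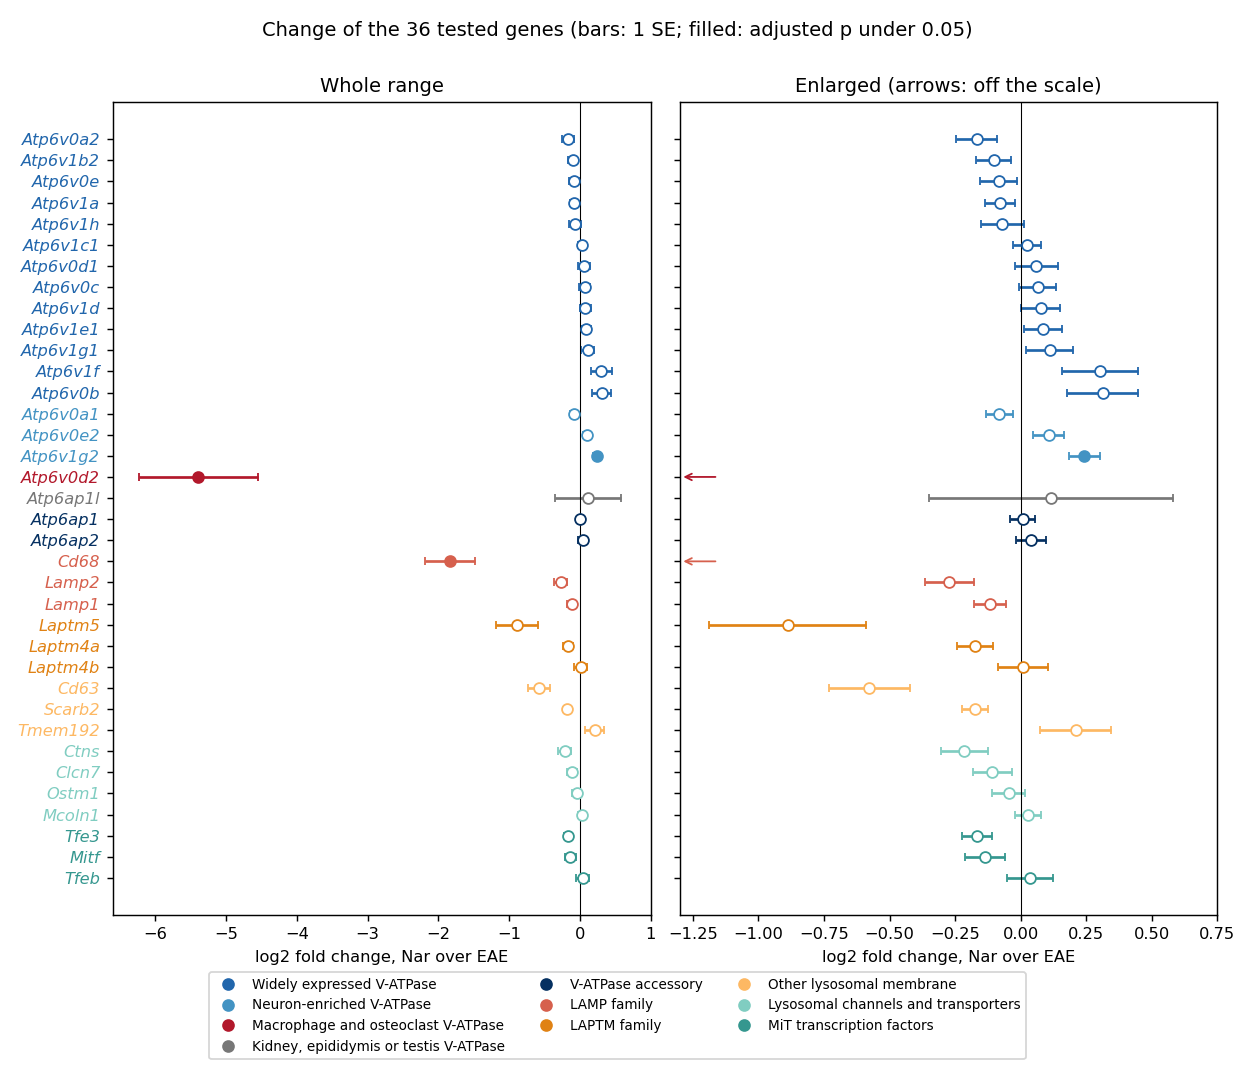
Log2 fold change (Nar minus EAE) of the tested members, grouped by role, with bars of 1 SE from edgeR's fit and filled points for an adjusted p under 0.05. Atp6v0d2 at -5.39 and Cd68 at -1.84 lie far to the left, Atp6v1g2 at 0.24 is the called member to the right, and the widely expressed pump subunits lie between -0.17 and 0.31.

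The d2 subunit sits at the base of the V0 sector, where it couples the central stalk of V1 to the proteolipid ring, and it takes the place of d1. Atp6v0d2 (ENSMUSG00000028238, GRCm38 chr4:19876841-19922605, minus strand) had 0, 0, 0, 4 and 0 reads in Nar 1 to 5. In EAE 1 to 5 it had 23, 16, 33, 80 and 82 reads. Every EAE sample therefore lay above every Nar sample, and the 4 Nar reads all came from Nar 4. In CPM the EAE samples were at 1.36, 0.848, 1.88, 4.26 and 4.67, so EAE 4 and EAE 5 stood above the other 3, and Nar 4 was at 0.27. Means were 0.054 ± 0.121 CPM for Nar and 2.6 ± 1.74 CPM for EAE (SD over 5 samples). EdgeR gave a log2 fold change of -5.39 (SE 0.842, adjusted p = 0.00551), a fitted value that depends on the prior count because 4 samples are at 0. It was -8.43 without Nar 4 (adjusted p = 0.00372), and under the other settings it ran from -5.58 with DESeq2 to -0.89 on log2(FPKM + 1) values, where a low gene's change is understated. Pooled over samples, the rate per library read was 47.9 times higher in EAE, with an exact interval from 18.4 to 177 that covers counting error only. The EAE mean was 50.8 times the floor of the 4 Nar samples with no read, taking 3 counts over that group as the floor. That value takes the EAE mean as exact, though EAE samples ran from 0.848 to 4.67 CPM. It also uses samples picked for having no read, so it is not a lower limit for the groups. The call was kept without each sample in turn (adjusted p from 0.00313 to 0.0262), and the SD within EAE was still 1.74 on a mean of 2.6.

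Its paralog Atp6v0d1, the widely expressed d subunit, was at 180, 183, 191, 189 and 181 CPM in Nar. The EAE samples had 171, 204, 202, 151 and 159 CPM. EAE samples lay on both sides of the Nar samples, and edgeR's log2 fold change was 0.06 (SE 0.0821, adjusted p = 0.699). Of all reads assigned to d1 or d2, Atp6v0d2 made up 1.45% in EAE (exact Clopper-Pearson interval 1.27 to 1.65%) and 0.0295% in Nar (0.00803 to 0.0755%). By sample the EAE shares were 0.791, 0.414, 0.922, 2.74 and 2.86%. The 4 Nar samples with no read allow a share of up to 0.105 to 0.115% each, below the lowest EAE share. Those intervals and limits cover counting error only. Thus d1 made up nearly all d-subunit reads in every sample, EAE included. The log2 ratio of Atp6v0d2 to Atp6v0d1 was -10.22 ± 0.733 in Nar and -6.28 ± 1.16 in EAE. That difference of -3.95 had an exact two-sided permutation p of 0.00794, the smallest that 5 against 5 can give, and an adjusted p of 0.0357 over the 9 paralog ratios computed. Its size depends on the prior count, at -5.55 with a prior of 0.5 and -3.03 from log2(FPKM + 0.1), with the same adjusted p. All 5 Nar ratios were below all EAE ratios. With 1 sample fewer, the adjusted p was 0.0714 without EAE 1, EAE 2, EAE 4 or EAE 5.

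**Figure D2:**
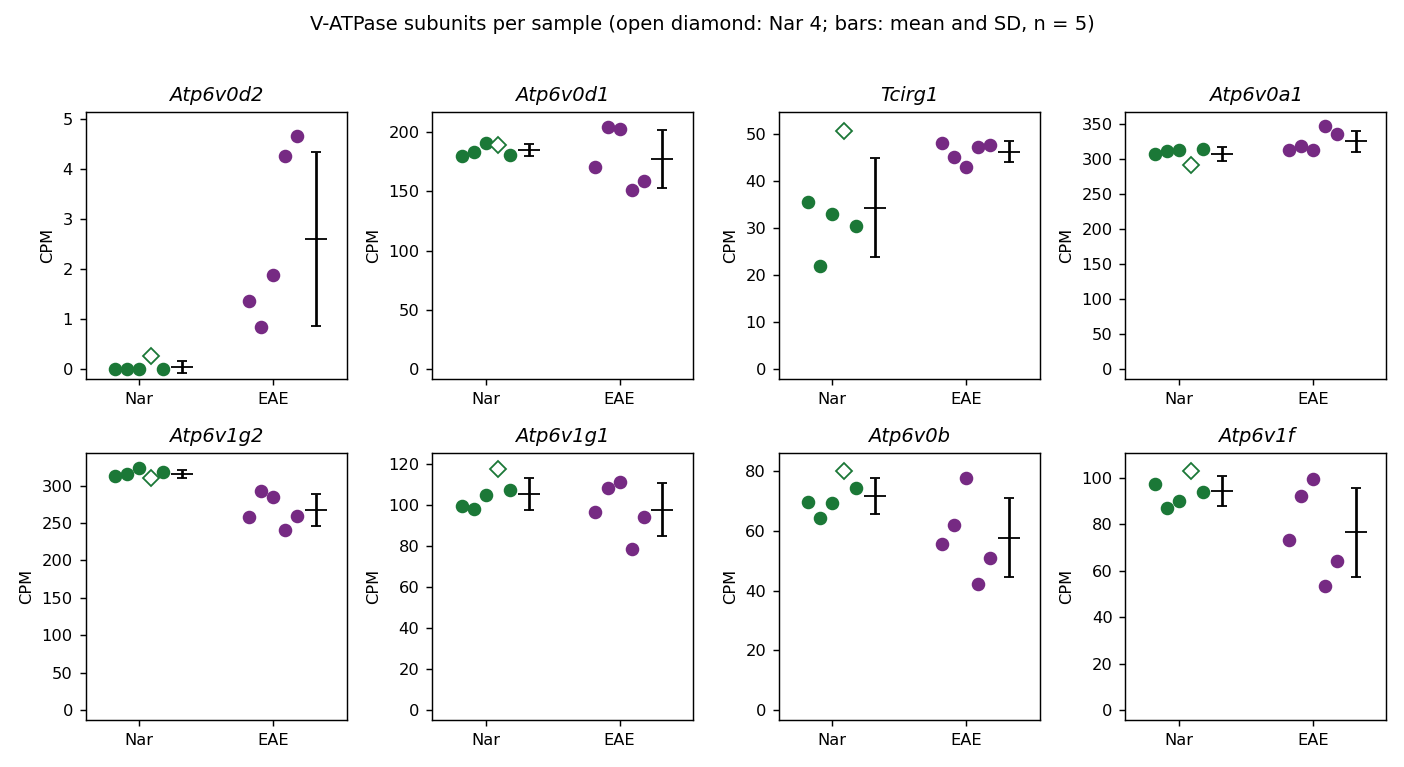
CPM of V-ATPase genes in each sample, with Nar 4 as an open diamond and bars for the mean and SD of 5 samples per group. Atp6v0d2 is at 0 in 4 Nar samples and between 0.848 and 4.67 CPM in EAE, while Atp6v0d1 overlaps between the groups.

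Macrophage and osteoclast markers were set beside Atp6v0d2, and their part in the result was not tested. The summed level of the 10 microglia and macrophage markers was 360 to 483 CPM in Nar 1, 2, 3 and 5, 1370 in Nar 4 and 1094 to 1463 in EAE. Nar 4 thus lay within the EAE range for these markers, while its Atp6v0d2 level of 0.27 CPM was below the lowest EAE sample. EdgeR called 0 of the 10 lower in all samples (8 had unadjusted p under 0.05, DESeq2 called 4 and limma-voom 8) and all 10 lower without Nar 4, and none of them was at 0. Over all genes edgeR called 2.36% lower, or 7.49% without Nar 4, and 22.5% had unadjusted p under 0.05. DESeq2 called 793 of 18382 genes lower and limma-voom 581 of 14595. The 8 infiltrating-macrophage markers summed to 14.9 to 29.9 CPM in those 4 samples, 129 in Nar 4 and 198 to 625 in EAE, and edgeR called 2 of 7 tested lower (Ms4a7 and Lyz2) and 3 without Nar 4. The 8 osteoclast markers summed to 29.6 to 34 CPM in Nar and 33.7 to 38.9 in EAE, with 0 of 6 tested called by edgeR, DESeq2 or limma-voom, 1 with unadjusted p under 0.05 and 1 called lower without Nar 4 (Acp5). Of these 6, 3 were lower in Nar by value (Acp5, Mmp9 and Nfatc1) and 3 higher (Calcr at 0.52, Oscar at 0.39 and Ctsk at 0.16 on the log2 scale). Of the genes for osteoclast fusion, Ocstamp had 0 reads in every Nar sample and 0, 0, 1, 0 and 4 in EAE, and Dcstamp had 4, 2, 3, 6 and 3 reads in Nar and 8, 5, 1, 5 and 8 in EAE. Acp5, which encodes the acid phosphatase of osteoclasts and some macrophages, had 4, 0, 2, 20 and 1 reads in Nar and 17, 29, 5, 76 and 71 in EAE. EAE 4 and EAE 5 were the highest samples for Acp5 as they were for Atp6v0d2, and the edgeR log2 fold change of Acp5 was -2.55 (adjusted p = 0.137), or -4.11 without Nar 4 (adjusted p = 0.0154). This order was not particular to Acp5. EAE 4 and EAE 5 were also the highest EAE samples for every infiltrating-macrophage marker of the list except Ms4a7. For Lyz2 the EAE samples were at 216, 187, 271, 464 and 479 CPM, and for Ms4a7 at 2.72, 2.39, 2.57, 4.2 and 2.45 CPM.

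None of the other V0 subunits that were tested passed in edgeR's fit of all samples. Atp6v0a1, the a subunit abundant in neurons, was at 306, 311, 313, 290 and 314 CPM in Nar. In EAE it was at 313, 318, 312, 347 and 335 CPM. The groups overlapped, with EAE 4 and EAE 5 highest, and edgeR's log2 fold change was -0.08 (adjusted p = 0.363). Atp6v0a2, the a subunit of Golgi and endosomes, was at 70.5, 68.5, 68.5, 83.5 and 64.2 CPM in Nar and 82.8, 69.7, 77.4, 86 and 83.3 in EAE. Nar 4 lay with EAE here, the log2 fold change was -0.17 (edgeR adjusted p = 0.224), and 9.86% of the gene's exon bases are shared with antisense genes whose reads unstranded counts could not separate. The non-member Tcirg1, the a3 subunit of osteoclasts and macrophages, was at 35.4, 21.9, 33, 50.6 and 30.3 CPM in Nar. In EAE Tcirg1 was at 48, 45.1, 42.8, 47.1 and 47.7 CPM. Nar 4 was the highest of all 10 samples and the other 4 Nar samples were below every EAE sample. Tcirg1's log2 fold change was -0.43 (SE 0.168, edgeR adjusted p = 0.166), and without Nar 4 it was -0.61 (adjusted p = 0.00295). Atp6v0a4, the a subunit of kidney, had 18 reads over all 10 samples and was not tested.

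Among the proteolipid and small V0 subunits, Atp6v0b was at 69.6, 64.2, 69.2, 80.2 and 74.4 CPM in Nar. Its EAE values were 55.7, 61.8, 77.6, 42.2 and 50.8 CPM. EAE 3 lay among the Nar samples and the other 4 EAE samples below all of them, giving a log2 difference of 0.31 (SE 0.134, edgeR adjusted p = 0.197). Without EAE 3 it passed (0.44, adjusted p = 0.0267). An antisense gene shares 11.8% of its exon bases. Mitochondrial reads moved in the same order within EAE: EAE 3 had the highest share (7.01%) and EAE 4 and EAE 5 the lowest (4.62 and 5.19%). Within Nar the order was not the same. Nar 4 and Nar 5 were highest for Atp6v0b at shares of 6.86 and 6.69%, and Nar 3, with the highest share (7.51%), was at 69.2 CPM. With the mitochondrial share as a covariate the log2 fold change of Atp6v0b was -0.05, a turn of sign shared by 15 tested members, none of them called. Share and group can hardly be told apart in that fit. Atp6v0c, the ring-forming c subunit, was at 0.07 on the log2 scale (edgeR adjusted p = 0.615), and processed pseudogenes of it could take or give reads. Atp6v0e and Atp6v0e2, paralogs of the small e subunit, were at -0.08 and 0.11 (adjusted p = 0.509 and 0.291), with neither passing edgeR's test. The ratio of Atp6v0e2 to Atp6v0e was 0.20 higher in Nar on the log2 scale (exact permutation p = 0.0317, adjusted p = 0.0714).

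In the V1 sector, the catalytic A subunit Atp6v1a was at 393, 477, 425, 420 and 421 CPM in Nar. The EAE samples held 442, 459, 445, 437 and 474 CPM. The highest of all 10 was Nar 2 and the lowest Nar 1, so the groups overlapped (log2 fold change -0.08, edgeR adjusted p = 0.423). Atp6v1b2, the B subunit of brain and most tissues, was at 528, 664, 561, 582 and 563 CPM in Nar and 601, 654, 664, 583 and 610 in EAE. Nar 2 again reached the top of the EAE range, and the log2 fold change was -0.10 (adjusted p = 0.374 with edgeR). The stalk and regulatory subunits Atp6v1c1, Atp6v1d, Atp6v1e1 and Atp6v1h had log2 fold changes of 0.02, 0.08, 0.08 and -0.07, with edgeR adjusted p values from 0.514 to 0.824. Atp6v1f, of the central stalk, was at 86.9 to 103 CPM in Nar and 53.6 to 99.6 in EAE, again with EAE 4 lowest and EAE 3 highest of its group (0.30, SE 0.147, edgeR adjusted p = 0.247). Over the 13 widely expressed subunits, edgeR, DESeq2 and limma-voom each called 0, and 1 had an unadjusted p under 0.05 with edgeR. Over all genes edgeR called 3.93% in either direction, and 22.5% had an unadjusted p under 0.05. The median log2 fold change of the 13 was 0.06, with 8 positive and 5 negative. With the mitochondrial share as a covariate all 13 were negative, in a fit that can hardly separate that share from group.

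The peripheral stalk gene Atp6v1g2, whose g2 subunit is abundant in neurons, was the member called higher. It lies at GRCm38 chr17:35233660-35238767 on the plus strand. Atp6v1g2 was at 313, 315, 324, 310 and 318 CPM in Nar. In EAE it was at 258, 293, 285, 241 and 259 CPM. The lowest Nar sample was above the highest EAE sample, and Nar 4 lay with its own group. EdgeR's log2 fold change was 0.24 (SE 0.0587, adjusted p = 0.0376), with 267 ± 21.2 CPM in EAE against 316 ± 5.27 in Nar (SD, n = 5 per group). The call did not hold without Nar 1 (adjusted p = 0.122), Nar 2 (0.0709), Nar 3 (0.14), Nar 5 (0.139), EAE 1 (0.102), EAE 4 (0.078) or EAE 5 (0.0834). With the mitochondrial share as a covariate the log2 fold change was 0.12 (edgeR adjusted p = 0.422). Of its exon bases 5.74% overlap the antisense gene Nfkbil1. Beside it, edgeR, DESeq2 and limma-voom called 0 of the 10 neuron markers, 2 of which had an unadjusted p under 0.05 with edgeR. Over all genes edgeR called 3.93% in either direction, and 22.5% had an unadjusted p under 0.05. The median log2 fold change of the neuron markers was 0.03. They summed to 9194 to 10718 CPM in Nar and 8561 to 11295 in EAE, with none at 0. All 8 oligodendrocyte markers had positive values, with a median of 0.30 and 2 called higher by edgeR (1.58% of all genes were). Without Nar 4 edgeR called 3 (2.61% of all genes), and so did DESeq2 (513 of 18382) and limma-voom (300 of 14595). The part of these markers in the result was not tested. The paralog of Atp6v1g2, Atp6v1g1, was at 98.1 to 118 CPM in Nar and 78.6 to 112 in EAE (log2 fold change 0.11, edgeR adjusted p = 0.483). The ratio of g2 to g1 differed by 0.13 (exact permutation p = 0.119, adjusted p = 0.153), which was within the spread.

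The accessory proteins Atp6ap1 and Atp6ap2 help to assemble the pump. Atp6ap1 was at 325, 332, 313, 325 and 318 CPM in Nar and 327, 321, 339, 305 and 313 in EAE. Atp6ap2 was at 209, 231, 217, 218 and 212 CPM in Nar and 214, 228, 221, 192 and 204 in EAE. Both genes overlapped between the groups, with log2 fold changes of 0.01 and 0.04 (edgeR adjusted p = 0.946 and 0.731). Atp6ap1l, a gene of similar sequence, was at 0.0676 to 1.17 CPM in Nar (0.12, adjusted p = 0.907). Paralogs of kidney, epididymis or testis were nearly absent: Atp6v1b1 had 17 reads in all samples together, Atp6v1c2 had 41, Atp6v1e2 had 16 and Atp6v1g3 had 0, a count that allows up to 3. Atp6v1fnb had 4, all in Nar 4. With Atp6v0a4 these are the 6 members that were not tested.

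Per transcript length, in FPKM, pump transcripts were mostly of the widely expressed and neuronal forms in both groups. These are RNA levels over mixed cells and do not give the make-up of the assembled pump. In EAE the highest levels were Atp6v1b2 at 118 FPKM, Atp6v0e2 at 115, Atp6v1g2 and Atp6ap1 at 107 each and Atp6v0d1 at 99.6. The genes known from macrophages and osteoclasts were lower, with Tcirg1 at 10.1 and Atp6v0d2 at 0.976. Of the summed FPKM of a1, a2, a3 and a4, Atp6v0a1 made up 72.3 ± 4.14% in Nar and 69.3 ± 1.07% in EAE. The Tcirg1 part was 11.4 ± 3.14% and 14 ± 0.537%. Of the e paralogs, Atp6v0e2 made up 93.1% in Nar and 92.2% in EAE. Of Atp6v1g1 and Atp6v1g2 together, g2 made up 57.5 ± 1.94% in Nar and 55.4 ± 1.69% in EAE. The plot of levels joins the Nar and EAE means of each gene. Most of these means lie close together, and Atp6v0d2 has the widest gap.

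**Figure D3:**
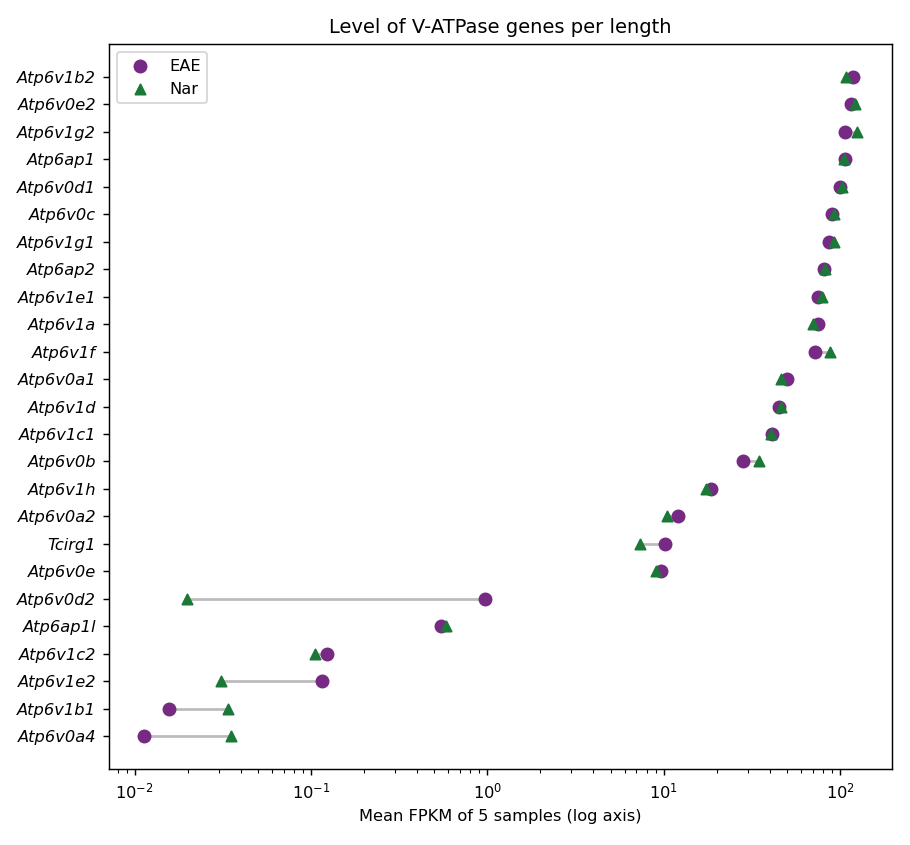
Mean FPKM of each V-ATPase gene on a log axis, with genes as rows in order of EAE level. Triangles are Nar and circles EAE, joined by a bar. Tcirg1 is added and genes at 0 in a group are left out. For most genes the group means lie close together, and Atp6v0d2 has the widest gap, at 0.0197 FPKM in Nar and 0.976 in EAE.

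Of the 16 membrane and MiT genes, edgeR called 1 lower in Nar (Cd68), beside 2.36% of all genes, and 0 higher. DESeq2 called 3 lower and limma-voom 4, beside 793 of 18382 and 581 of 14595 genes, and both called 0 higher. The fold changes of the 16 were negative for 12 and positive for 4, with a median of -0.15, and 8 had an unadjusted p under 0.05 with edgeR. Over all genes the median was 0.02 and that share 22.5%. Without Nar 4 edgeR called 5 lower, beside 7.49% of all genes. The 6 astrocyte markers also had negative values throughout, with a median of -0.27 and 3 called lower by edgeR, DESeq2 and limma-voom (Aqp4, Slc1a2 and Sox9). They summed to 2906 to 3181 CPM in Nar and 3382 to 4195 in EAE, with none at 0, and their part in the members' values was not tested.

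Cd68 encodes a heavily glycosylated LAMP-family protein of macrophages and microglia (GRCm38 chr11:69664213-69666153, minus strand). Its level was 7.71, 7.83, 8.41, 25.6 and 8.44 CPM in Nar. Cd68 in EAE was 36.4, 31.2, 50.4, 43.6 and 45.5 CPM. Nar 4 lay between the other Nar samples and EAE, and every Nar sample lay below every EAE sample. The mean was 11.6 ± 7.82 CPM in Nar and 41.4 ± 7.6 in EAE, a log2 fold change of -1.84 (SE 0.354, edgeR adjusted p = 0.0255). Without Nar 4 it was -2.35 (adjusted p = 4.17e-07). The call did not hold without Nar 1 (adjusted p = 0.0686), Nar 3 (0.0731), Nar 5 (0.0739), EAE 1 (0.0518), EAE 4 (0.0703) or EAE 5 (0.0591), nor with the mitochondrial share as a covariate (0.137).

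Lamp1 and Lamp2, the most abundant glycoproteins of the lysosomal membrane, did not pass the test. Lamp1 was at 499, 491, 479, 490 and 468 CPM in Nar and 518, 542, 594, 498 and 480 in EAE. EAE 4 and EAE 5 lay among the Nar samples and the other 3 EAE samples above all of them (log2 fold change -0.12, SE 0.0604, edgeR adjusted p = 0.268). Of Lamp1's exon bases 9.31% are shared with Grtp1. Lamp2 was at 139, 154, 140, 205 and 157 CPM in Nar and 197, 197, 178, 191 and 197 in EAE. Nar 4 was above every EAE sample and the other 4 Nar samples below all of them. Lamp2's log2 fold change was -0.27 (SE 0.0937, edgeR adjusted p = 0.115), and without Nar 4 it was -0.38 (adjusted p = 0.00112). The ratio of Cd68 to Lamp1 was -5.56 ± 0.735 in Nar and -3.68 ± 0.288 in EAE on the log2 scale, a difference of -1.88 (exact permutation p = 0.00794, adjusted p = 0.0357). All 5 Nar ratios lay below all EAE ratios, and the adjusted p was 0.0714 without EAE 1, EAE 2, EAE 4 or EAE 5. The ratio of Lamp2 to Lamp1 differed by -0.17 (exact permutation p = 0.214, adjusted p = 0.241).

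LAPTM5 belongs to a family of small lysosomal membrane proteins and is abundant in blood-derived cells and microglia. Laptm5 was at 38.3, 40.1, 42.2, 108 and 47.3 CPM in Nar. Laptm5 in EAE was at 98.3, 83.6, 89.5, 125 and 115 CPM. Nar 4 lay inside the EAE range and the other 4 Nar samples were below all of it. Between groups Laptm5 differed by -0.89 on the log2 scale (SE 0.3, edgeR adjusted p = 0.131), and without Nar 4 -1.28 (adjusted p = 1.34e-05). With all samples Laptm5 passed in limma-voom (adjusted p = 0.0246) and in 2 of 3 fits on FPKM, and not in DESeq2. Its relative Laptm4a, found in most tissues, was at 304, 320, 322, 319 and 293 CPM in Nar and 349, 389, 386, 314 and 317 in EAE. EAE 4 and EAE 5 lay among the Nar samples (log2 fold change -0.17, SE 0.0695, edgeR adjusted p = 0.165). Laptm4b was at 0.01 (adjusted p = 0.963). The ratio of Laptm4b to Laptm4a was 0.19 higher in Nar (exact permutation p = 0.0159, adjusted p = 0.0476), with 4 of 5 Nar samples above every EAE sample. Without Nar 1, 2, 3 or 5 or EAE 1, 2, 4 or 5 its adjusted p was 0.0714. The ratio of Laptm5 to Laptm4a was -0.83 (exact permutation p = 0.0397, adjusted p = 0.0714).

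Cd63, a tetraspanin of late endosomes and lysosomes, also had Nar 4 apart from the other Nar samples. It was at 92.6, 91.9, 92.7, 155 and 88.1 CPM in Nar and 152, 153, 178, 130 and 162 in EAE. Nar 4 lay within EAE and the other 4 Nar samples were below all EAE samples. Cd63's log2 fold change was -0.58 (SE 0.154, edgeR adjusted p = 0.0619) and without Nar 4 -0.76 (adjusted p = 3.19e-05). With all samples Cd63 passed in DESeq2 (adjusted p = 0.00271), limma-voom (0.0234) and the 3 fits on FPKM. A transcribed pseudogene of Cd63 exists. Scarb2, the membrane receptor that delivers glucocerebrosidase to lysosomes, was at 290, 300, 308, 320 and 295 CPM in Nar and 339, 330, 359, 338 and 344 in EAE. Here all Nar samples, Nar 4 included, were below all EAE samples, but the gap was small (log2 fold change -0.18, SE 0.0495, edgeR adjusted p = 0.0625). Without Nar 4 the adjusted p for Scarb2 was 0.0273, and with all samples it passed in DESeq2 (0.0045), limma-voom (0.0485), edgeR with upper quartile factors (0.0463) and the 3 fits on FPKM. Tmem192, another lysosomal membrane protein, was at 0.21 (edgeR adjusted p = 0.378).

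**Figure D4:**
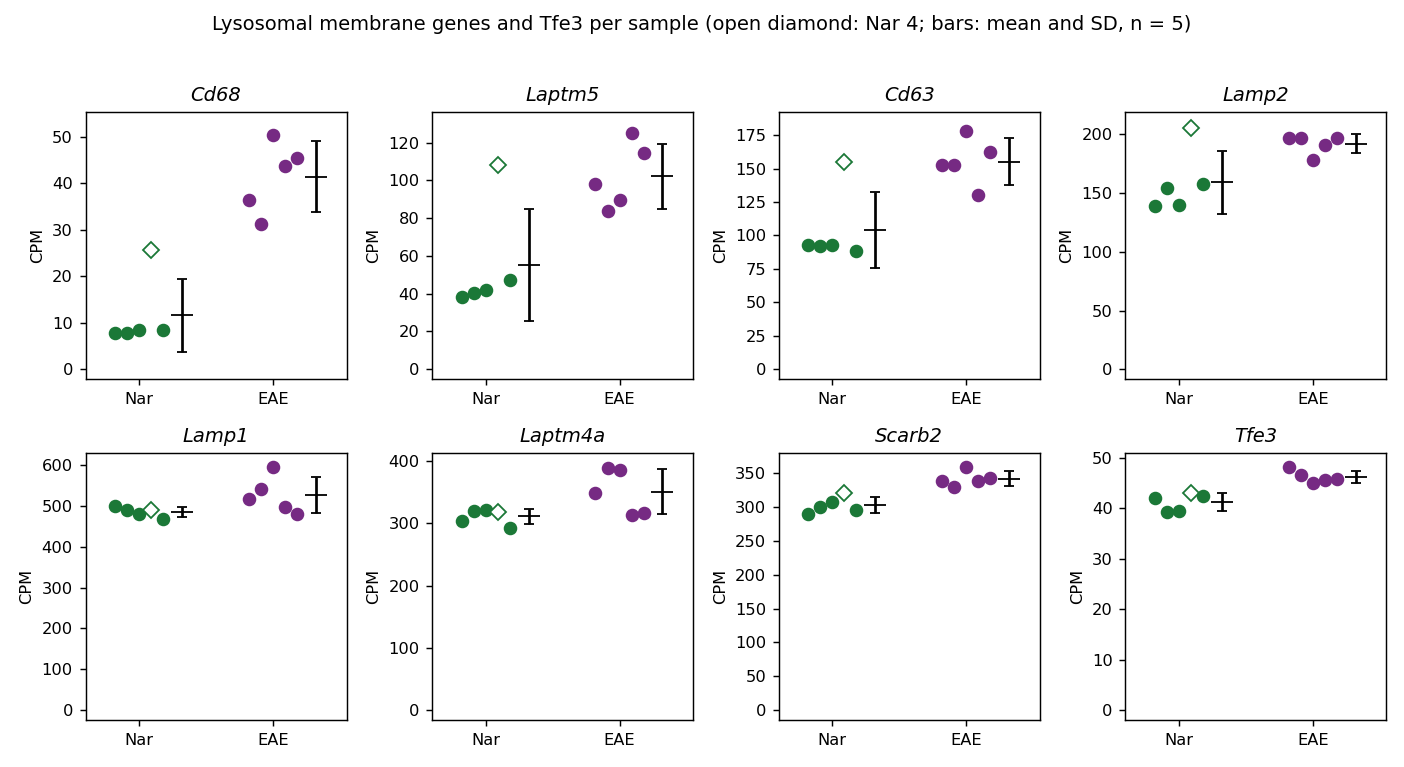
CPM of 7 lysosomal membrane genes and Tfe3 in each sample, with Nar 4 as an open diamond and bars for the mean and SD of 5 samples per group. Cd68, Laptm5, Cd63 and Lamp2 have 4 low Nar samples with Nar 4 apart from them, while Scarb2 and Tfe3 separate the groups by a small step and Lamp1 and Laptm4a overlap.

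The channels and transporters of the membrane showed no call, and 1 of the 4 had an unadjusted p under 0.05 with edgeR. DESeq2 and limma-voom called 0 as well. Over all genes edgeR called 3.93% in either direction and 22.5% had an unadjusted p under 0.05, so these 4 do not stand apart. Mcoln1, the calcium-releasing channel mucolipin, was at 66.3, 67.3, 66.6, 67.4 and 70 CPM in Nar and 67, 67.5, 66.6, 62.9 and 66.7 in EAE. Its values were among the tightest of the members (log2 fold change 0.03, edgeR adjusted p = 0.763). The cystine exporter Ctns was at -0.22 (adjusted p = 0.179). The chloride-proton exchanger Clcn7 and its partner Ostm1 were at -0.11 and -0.04 (edgeR adjusted p = 0.405 and 0.704).

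The MiT factors differed little. Tfeb was at 27, 27.6, 24.7, 26.1 and 28.2 CPM in Nar and 26.5, 28, 29.4, 24.9 and 21.4 in EAE. Mitf was at 20.1, 20.9, 20.8, 21.3 and 18.6 CPM in Nar and 21.7, 24.2, 24.1, 21.2 and 20.7 in EAE. Both overlapped between the groups (log2 fold change 0.04 and -0.14, edgeR adjusted p = 0.834 and 0.308). Tfe3 was at 42.1, 39.2, 39.4, 43 and 42.4 CPM in Nar and 48.2, 46.6, 45.1, 45.5 and 45.8 in EAE. All Nar values of Tfe3 were below all EAE values, by a log2 fold change of -0.17 (SE 0.0571) that did not pass (edgeR adjusted p = 0.115). EdgeR, DESeq2 and limma-voom called 0 of the 7 members with an E-box in the promoter window, and 1 (Atp6v0b) had an unadjusted p under 0.05 with edgeR. DESeq2 and limma-voom called 0 of the 3 MiT factors, 1 of which had an unadjusted p under 0.05 with edgeR. Over all genes edgeR called 3.93% in either direction, and 22.5% had an unadjusted p under 0.05. Counts from so few genes cannot be told from those shares.

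The 9 paralog ratios compare genes within a sample, so library scaling cancels except for the prior count. Adjusted over the 9, those of Atp6v0d2 to Atp6v0d1, Cd68 to Lamp1 and Laptm4b to Laptm4a passed. That of Tcirg1 to Atp6v0a1 was -0.40 (exact permutation p = 0.0873, adjusted p = 0.131), and that of Atp6v0a2 to Atp6v0a1 -0.09 (p = 0.421 in both). Without Nar 4 the other 6 ratios passed too, with Tcirg1 to Atp6v0a1 at -0.57 (exact permutation, adjusted p = 0.0143).

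**Figure D5:**
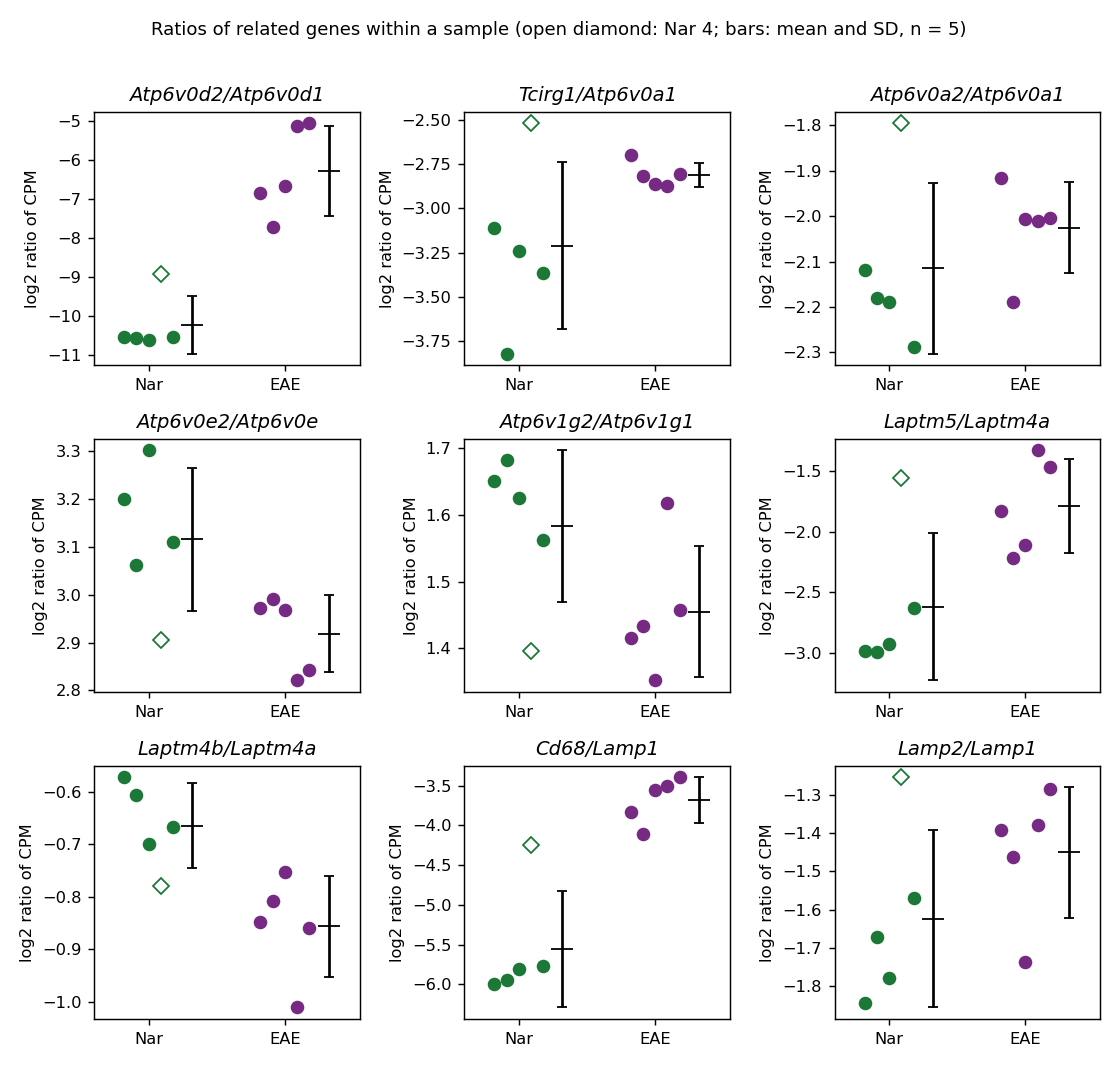
Log2 ratios of 9 paralog pairs per sample, from CPM with a prior count of 2, with Nar 4 as an open diamond and bars for the mean and SD of 5 samples per group. The ratios of Atp6v0d2 to Atp6v0d1 and of Cd68 to Lamp1 separate the groups, with Nar 4 nearest to EAE among the Nar samples in both.

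Other genes of the pathway were read from companion lists. Of 16 genes for pump assembly and regulation, Tcirg1 included, 14 were tested and edgeR, DESeq2 and limma-voom called 0. Of these, 2 had an unadjusted p under 0.05 with edgeR, and the median log2 fold change was 0.01. Over all genes edgeR called 3.93% in either direction, and 22.5% had an unadjusted p under 0.05. The next smallest p after Tcirg1 belonged to Wdr7, a partner of the pump in synaptic vesicles, at -0.16, then Tbc1d24 at 0.16 and Rogdi at 0.17 (edgeR adjusted p = 0.2, 0.311 and 0.316). Of 16 genes for the lysosomal mTORC1 machinery, all were tested, edgeR, DESeq2 and limma-voom called 0 and 3 had an unadjusted p under 0.05 with edgeR. Fnip2 was at -0.38, Lamtor2 at 0.35, Mtor at -0.16 and Rab7 at 0.12 (edgeR adjusted p = 0.13, 0.149, 0.176 and 0.287). Of 31 further lysosomal membrane genes 29 were tested and edgeR called 3 lower and 0 higher, beside 2.36% and 1.58% of all genes. DESeq2 and limma-voom each called 6 lower, beside 793 of 18382 and 581 of 14595 genes. Without Nar 4 edgeR called 8, beside 7.49% of all genes in that fit. Mfsd1, a dipeptide transporter of lysosomes, was at 35, 43.1, 39.8, 38.9 and 32 CPM in Nar and 53.3, 53.3, 51.8, 58.2 and 57.2 in EAE. Nar 4 lay with its own group for Mfsd1 and the groups did not overlap (log2 fold change -0.54, SE 0.0801, edgeR adjusted p = 0.00336). The amino acid transporter Slc36a1 was at -0.24 (edgeR adjusted p = 0.0423), and the sialomucin Cd164 was at -0.22 (0.0581).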

How the data were processed

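The authors deposited 1 table with gene counts and FPKM for 10 libraries of mouse spinal cord. Per the submitters' processing notes, cutadapt and HISAT2 2.0.5 were used. No source used here names the counting tool or the build. The deposited counts are whole reads per gene. The deposited FPKM equal count per length per total within 1% for 100% of values above 0.1 FPKM, and lower values were not compared. Gene intervals matched GENCODE M21 (GRCm38) for all 42 members and for 21694 of 21936 genes. Whether counting used strand is not stated. The test on counts was run in edgeR 4.0.16 (R 4.3.3): low-count filter by group, TMM scaling, robust quasi-likelihood test, Nar against EAE, Benjamini-Hochberg adjustment over the 14595 genes tested, threshold 0.05. CPM use TMM-scaled totals. Paralog ratios use log2 CPM with a prior count of 2 and a two-sided exact permutation over 252 assignments, adjusted over 9 ratios. Spread between replicates was above counting noise, with a chi-square per degree of freedom of 4.07 to 17.7 in Nar and 6.47 to 38 in EAE. The scripts were tested on simulated data.

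All members are named. Values in every sample are given for called members and for a list of main subunits and membrane genes, and from each companion list of lysosomal genes the 4 tested genes of smallest p are named, except 1 gene that is not reported here. The marker genes given by name were singled out after their values were seen. The members and lists were chosen with earlier results of these data known, and the motifs after the fit had been seen. Alternatives were other scaling and filters, DESeq2 1.42.0, limma 3.58.1 on counts (voom) and on FPKM, a replicate block, the mitochondrial share as a covariate and leaving out each sample.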

Additional observations from a re-analysis of the deposited data

Results flagged for a closer look

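Within each group of 5, the gap of the highest or lowest sample to its neighbour was divided by the group's range, for 72 gene and group pairs over the tested members. Chance gives about 1 in 20 such pairs past Dixon's 95% limit, and 6 were past it, 4 of them with Nar 4 as the highest sample. For Atp6v0d2 the other 4 Nar samples had no read, so any read in Nar 4 would give a gap of 1.0. Nar 4 was highest for Atp6v0d2 (0.27 CPM, gap 1.0 of the range), Cd68 (25.6 CPM, 0.925), Cd63 (155 CPM, 0.909) and Laptm5 (108 CPM, 0.798). Its microglia and macrophage markers were high as well, with a mean log2 CPM of 6.18 against 4.28 to 4.61 in Nar 1, 2, 3 and 5, and their part in these values was not tested. EAE 4 was the lowest for Mcoln1 (62.9 CPM, 0.798). Nar 1 was the lowest for Atp6ap1l (0.0676 CPM, 0.749), a gene of few reads.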

How the results depend on the processing

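The log2 fold changes of 36 members and Tcirg1 gave 774 values under up to 11 other settings and 10 fits without 1 sample: 736 kept their side of the threshold and, for called genes, their direction, 16 lost it, 22 gained it and 0 called values reversed. Genes called higher and lower, 230 and 344 in all, became 187 and 419 with upper quartile factors, 188 and 338 with no filter, 513 and 793 with DESeq2's Wald test, 300 and 581 with limma-voom, 193 and 526 with log2(FPKM + 1), 191 and 538 with log2(FPKM + 0.1), 140 and 398 with log2(FPKM + 1) and no filter, and 129 and 68 with the mitochondrial covariate. Without 1 sample they ranged from 52 to 452 and from 109 to 1102. Called pump members, 1 higher and 1 lower, became 0 higher with no filter or the covariate, and 0 lower with an FPKM minimum of 0.5, which Atp6v0d2 does not reach. Without 1 sample, 0 to 2 were higher and 1 lower. Membrane and MiT members lower, 1 in all, became 2 with upper quartile factors, 3 with DESeq2, 4 with limma-voom, 4, 4 and 3 on FPKM, and 0 to 5 without 1 sample.

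Same-numbered samples had correlations of -0.23 to 0.16, and differently numbered samples of the 2 groups -0.20 to 0.28. So few values cannot show whether the numbers pair the samples, and the labels do not say. With the replicate block 186 genes were higher and 450 lower, with 2 membrane members lower. By sign flips in the replicate block, where p cannot go below 0.0625, the ratios that passed had an adjusted p of 0.1125: Atp6v0d2 to Atp6v0d1 (-3.95), Cd68 to Lamp1 (-1.88) and Laptm4b to Laptm4a (0.19). Without 1 sample these ranged from -4.31 to -3.64, -2.20 to -1.77 and 0.15 to 0.22, and the others from -0.57 to -0.25 (Tcirg1 to Atp6v0a1), -0.17 to -0.046 (Atp6v0a2 to Atp6v0a1), 0.15 to 0.25 (Atp6v0e2 to Atp6v0e), 0.10 to 0.18 (Atp6v1g2 to Atp6v1g1), -1.09 to -0.71 (Laptm5 to Laptm4a) and -0.27 to -0.12 (Lamp2 to Lamp1). The cause of these changes was not tested, apart from fewer samples and the FPKM minimum. Depth left 6 members untested, and Atp6v0d2 had 4 reads over all Nar samples.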
